A study of Homo sapiens with 8 samples.

Results

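The SLC25 genes encode the mitochondrial carriers, the family of inner-membrane proteins through which nucleotides, phosphate, amino acids, carboxylates and cofactors pass between the cytosol and the matrix. All protein-coding genes whose symbol is SLC25A followed by a number were taken, in each of the 2 separately made expression tables of the study. There were 49 such rows among 20312 protein-coding genes in the table of round 1 and 48 among 19821 in that of round 2. They make 48 distinct symbols and 50 gene identifiers. In round 1, 39 of the rows reached 1 FPKM (fragments per kilobase of gene, scaled to library size) in at least 1 library, and in round 2 this held for 36. A total of 37 carriers were tested, those present in both tables with at least 1 FPKM in at least 2 of the 8 libraries, among 12696 genes tested in all. The selection used names and a minimum level, not any difference between treatments.

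The cells were MDA-MB-231, an established human triple-negative breast cancer line, and 1 culture well gave each library of poly-A RNA. Round 1, at passage 8, held 4 libraries: vehicle (1% DMSO) in the dark, vehicle with UV-A, the compound 1-SO in the dark, and 1-SO with UV-A. Round 2, at passage 32 to 34, held both vehicle conditions and 1-S without and with UV-A. Both compounds were given at 10 µM for 24 h, and irradiated plates received UV-A of 325 to 375 nm from 8 bulbs during 30 min. The compound 1-SO, (5-oxo-2-dibenzothienylmethyl)triphenylphosphonium, is a sulfoxide, whereas 1-S lacks its oxo group. Triphenylphosphonium is a lipophilic cation that carries attached molecules into mitochondria, where the proteins described here sit. Vehicle groups thus had n = 2 libraries, 1 per round, and each of the 4 compound groups had n = 1. Each compound has vehicle libraries of its own round and passage, but between 1-SO and 1-S the compound, round and passage cannot be told apart. Light and culture plate cannot be told apart either.

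Carriers of this family share a fold of repeated membrane-spanning helices and mostly work as exchangers, letting a substrate in while another leaves. The ADP/ATP carriers and the phosphate carrier supply the ATP synthase with its substrates, and the citrate, dicarboxylate and oxoglutarate carriers join the citric acid cycle to fatty acid synthesis and to the malate-aspartate shuttle. Others bring in glycine for haem synthesis, iron, glutathione, folate or NAD. Because the compounds are directed at mitochondria, the study's comparisons ask of these genes whether their RNA differed with compound, with light and with both.

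Totals ran from 15.8 to 22.6 M reads per library, and a count of 0 allows up to 0.133 to 0.19 CPM (counts scaled to library size) at these depths. The line's markers VIM, CD44 and EGFR were present in each library (28.3 FPKM or more), and ESR1, PGR and CDH1 did not exceed 0.14 FPKM. Of the markers of other cell types, HBB was at 0 in every library and PTPRC and LUM did not exceed 0.12 FPKM. COL1A1, a fibroblast marker, was at 1.45 to 2.67 FPKM in the 6 libraries without 1-S and at 7.09 and 6.39 FPKM with 1-S in the dark and with UV-A. Its part in the results for 1-S was not tested. In bulk RNA, fewer cells with a transcript and less of it per cell cannot be told apart.

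The promoters of 4 carriers that the results turn on are shown here, as the 250 bases before the RefSeq start in GRCh38.p14, in the direction of the gene. SLC25A1 (citrate carrier, chr22:19178737-19178986, minus strand) and SLC25A11 (oxoglutarate carrier, chr17:4940047-4940296, minus strand) were called lower with 1-SO under UV-A and with 1-S in the dark. SLC25A29 (basic amino acid carrier, chr14:100306445-100306694, minus strand) and SLC25A38 (mitochondrial glycine carrier, chr3:39383120-39383369, plus strand) were called higher with 1-S under either light condition. Capitals mark a match to TGACNNNGC, the core of the antioxidant response element, in SLC25A1, and a match on the other strand to TGATGNAA, the core of the composite C/EBP-ATF element, in SLC25A11.
SLC25A1: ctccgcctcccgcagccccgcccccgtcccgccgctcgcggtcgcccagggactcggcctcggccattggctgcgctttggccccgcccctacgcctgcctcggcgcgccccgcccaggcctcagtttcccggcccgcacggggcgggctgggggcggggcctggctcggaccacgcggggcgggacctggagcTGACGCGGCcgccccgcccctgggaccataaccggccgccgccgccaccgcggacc
SLC25A11: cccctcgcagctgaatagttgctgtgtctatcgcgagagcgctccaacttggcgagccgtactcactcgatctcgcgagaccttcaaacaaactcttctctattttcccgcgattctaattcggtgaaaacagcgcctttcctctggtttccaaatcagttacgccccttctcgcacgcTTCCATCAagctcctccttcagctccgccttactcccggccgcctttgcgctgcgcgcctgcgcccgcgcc
SLC25A29: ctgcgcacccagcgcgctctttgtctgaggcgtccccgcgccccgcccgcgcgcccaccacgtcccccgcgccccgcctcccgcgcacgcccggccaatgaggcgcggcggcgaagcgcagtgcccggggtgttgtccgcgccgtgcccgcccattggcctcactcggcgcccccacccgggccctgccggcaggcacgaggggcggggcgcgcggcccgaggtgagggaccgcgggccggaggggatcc
SLC25A38: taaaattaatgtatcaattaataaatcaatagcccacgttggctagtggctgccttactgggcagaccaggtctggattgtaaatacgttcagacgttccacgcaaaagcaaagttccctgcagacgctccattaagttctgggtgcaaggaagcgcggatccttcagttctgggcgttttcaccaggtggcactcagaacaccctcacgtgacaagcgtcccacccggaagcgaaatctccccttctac

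Both motifs were searched on both strands in the 40 RefSeq promoters that matched 31 of the 37 tested carriers. TGACNNNGC was found for 7 carriers, SLC25A1, SLC25A5, SLC25A13, SLC25A22, SLC25A24, SLC25A25 and SLC25A39, and in 10.9% of all 35116 promoters of the same length. TGATGNAA was found for SLC25A11 only, and in 3.14% of all promoters. Carriers were counted per gene, with a match in any promoter of the gene, and the background per promoter. The counts and percentages therefore do not compare directly. The SLC25A1 and SLC25A29 promoters held 81.6% and 81.2% G and C, and those of SLC25A11 and SLC25A38 held 57.6% and 49.6%.

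The level of the family was set by few members. SLC25A5, the ADP/ATP carrier that proliferating cells mainly use, was the most abundant, with 289, 222, 275 and 197 FPKM in round 1 (vehicle dark, vehicle UV-A, 1-SO dark and then 1-SO UV-A, the order kept from here on). In round 2 it had 224, 247, 168 and 198 FPKM (the same order, with 1-S in place of 1-SO). The phosphate carrier SLC25A3 followed in round 1 with 250.2, 225, 249.6 and 204 FPKM, and had 85.9, 87.3, 48.2 and 52.9 FPKM in round 2. SLC25A5 and SLC25A3 together made 33.4 to 44.7% of the summed FPKM of the carriers, a sum that lay between 1037 and 1206 in round 1 and between 649 and 788 in round 2. Levels are compared only within a round, because the gene model of each of the 37 carriers is longer in round 2, by 1.01 to 4.43 times.

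Among the 3 ADP/ATP carriers expressed, SLC25A5 made 65.1 to 74.6% of the summed FPKM. SLC25A6, an isoform found in most tissues, had 68.7, 53.4, 64.9 and 59.7 FPKM in round 1 and 69.6, 69.3, 78.9 and 93.2 in round 2. SLC25A4, the isoform of heart and muscle, had 52.1, 57.5, 54.4 and 45.9 FPKM in round 1 and 14.2, 14.7, 11.5 and 12.5 in round 2. In round 2 the share of SLC25A6 within the trio was 22.6 and 20.9% with vehicle and 30.5 and 30.7% with 1-S. Reads of these near-identical genes and of their many processed pseudogenes may be divided unevenly by the counting, and how it treated them was not given in the sources. SLC25A31, the testis isoform, did not exceed 0.1 FPKM.

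In the other substrate classes the leading members were SLC25A39 (glutathione, 64.9 to 73.3 FPKM in round 1 and 41.5 to 45.5 in round 2), SLC25A1 (citrate), the mitoferrin SLC25A37 (iron, 26.8 to 31.2 and 19.7 to 27.8), SLC25A46 (an outer-membrane member without a settled substrate, 13.5 to 17.7 and 10.2 to 14.4) and SLC25A30 (a relative of the uncoupling proteins, 6.12 to 7.06 and 6.14 to 8.4). SLC25A39 and SLC25A30 were called in no comparison. SLC25A32, the folate and FAD carrier, leads the nucleotide and cofactor class only through round 1, where it had 27.5, 24.1, 26 and 27.5 FPKM. In round 2 it had 3, 9, 9 and 1 reads. A gene model on the same strand, AC012213.5, spans it in the round 2 table alone and is listed at 0 in all 4 libraries, and whether that bears on the missing reads was not tested. Ratios of SLC25A32 in round 2 are therefore given no weight below.

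**Figure D1:**
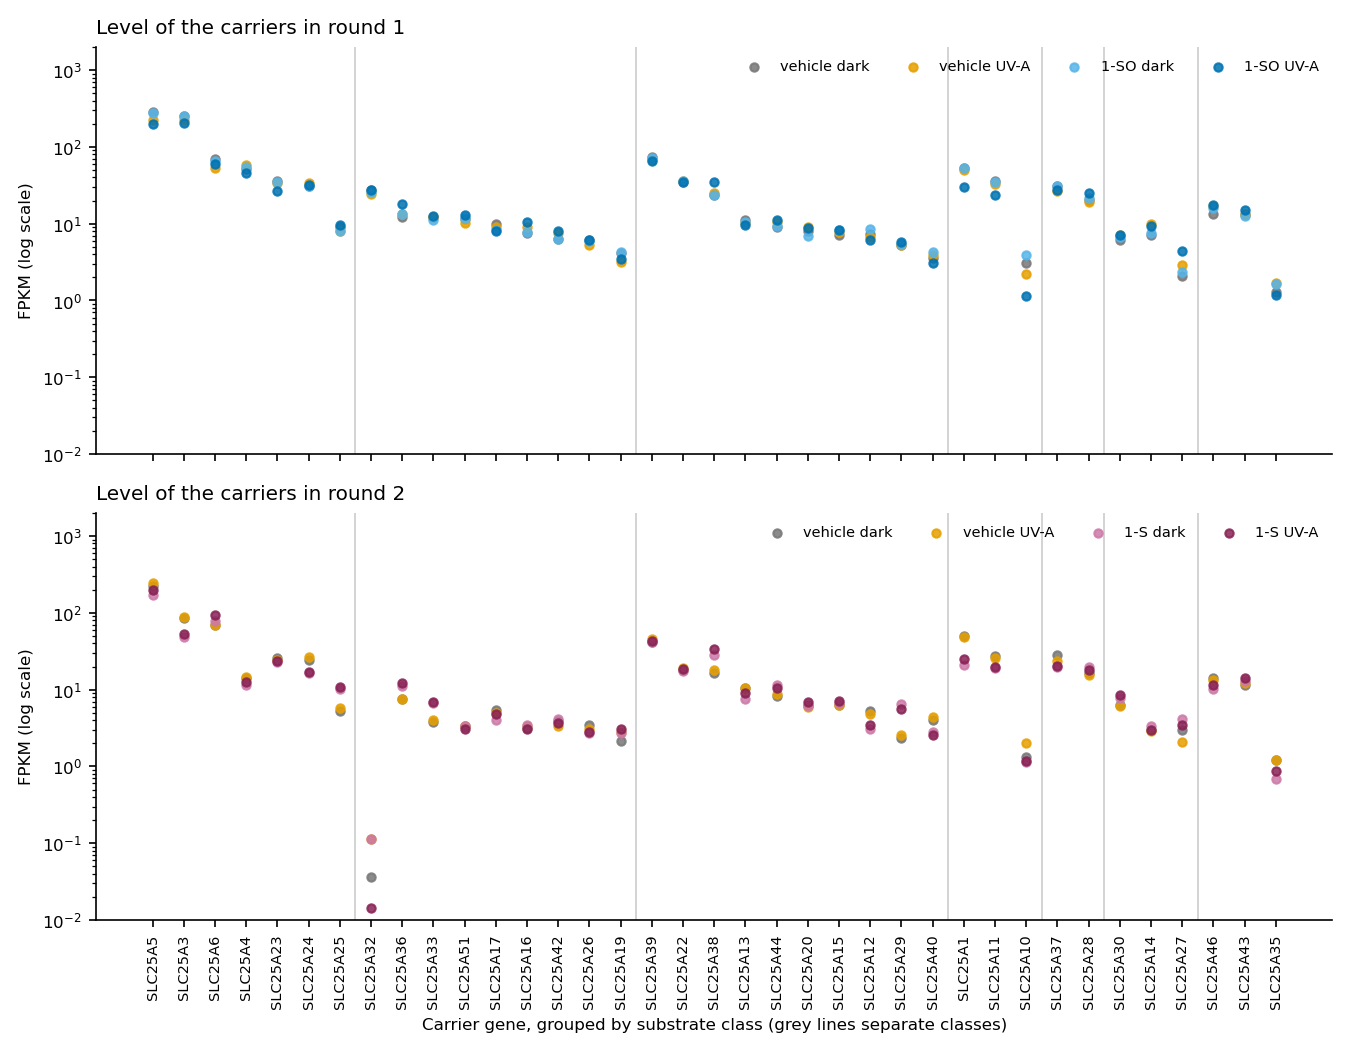
FPKM (log axis) of each tested carrier in the 4 libraries of round 1 (top) and of round 2 (bottom), grouped by substrate class, 1 point per library. SLC25A5 and SLC25A3 stand highest in round 1, at up to 289 and 250.2 FPKM, and SLC25A32 is at 0.113 FPKM or less in round 2.

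Members at the edge of the selection were few. Apart from SLC25A32 in round 2, SLC25A35 was the lowest member tested, at 1.16 to 1.68 FPKM in round 1 and 0.68 to 1.23 in round 2. Just outside lay SLC25A45, with 0.46, 0.56, 0.55 and 1.37 FPKM in round 1, where only the 1-SO UV-A library passed 1 FPKM. SLC25A53 had 1.04, 1, 0.94 and 1.03 FPKM in round 1 and another gene identifier in round 2, so it could not be tested across rounds. SLC25A34 had 0.14, 0.17, 0.17 and 0.87 FPKM in round 1 and 0.17, 0.07, 0.39 and 0.43 in round 2. The remaining members, such as SLC25A2, SLC25A47 and SLC25A48, did not exceed 0.465 FPKM in any library.

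Each comparison below gives the log2 ratio between the libraries of a round, on a TMM-scaled CPM scale, and the fitted log2 change with its standard error (SE). The fit was edgeR's quasi-likelihood test in 1 model of the 8 libraries, with Benjamini-Hochberg adjustment over the 12696 genes tested and a call at adjusted p under 0.05. Both rounds have a common light term for vehicle cells, and the compound libraries, without replicates, are assumed to vary like the vehicle libraries. Nothing says that wells were separate cultures, so the p-values measure the spread between these libraries only.

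UV-A alone left no carrier called. In vehicle cells 0 of 37 carriers, like 0% of all genes tested, passed the edgeR test for light, although 347 genes and 0 carriers had an unadjusted p under 0.05. By the libraries, the response of round 1 ran from -0.54 (SLC25A10, the dicarboxylate carrier) to 0.41 (SLC25A27, an uncoupling protein relative). In round 2 these same members were at 0.60 and -0.52, at levels of no more than 3.01 FPKM. SLC25A5 was at -0.45 in round 1 and 0.16 in round 2, so the rounds gave opposite signs for the most abundant carrier too. SLC25A37 had the lowest fitted vehicle response, -0.25 ± 0.13 (SE), and the typical 95% interval of a carrier reached 0.34 to either side.

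1-SO in the dark gave no call either. By edgeR 0 of 37 carriers were called for 1-SO dark against vehicle dark, as were 0% of all genes tested, and 26 genes and 0 carriers had an unadjusted p under 0.05. The library ratios of the carriers lay between -0.27 (SLC25A17, a peroxisomal member) and 0.33 (SLC25A10), with a median of -0.0046 against -0.0064 over all genes tested. SLC25A1 had 53.9 FPKM with vehicle and 53.8 with 1-SO. SLC25A5 had 289 and 275 FPKM, lower with 1-SO, whereas its fitted change was 0.05 with a 95% interval of -0.37 to 0.47. The fit uses a light term common to both rounds, and the vehicle light response of SLC25A5 differed in sign between them. The typical interval, not adjusted for the number of genes, reached 0.45 to either side, so smaller differences were not detectable with 1 library. A call at the adjusted threshold is stricter than this interval, so somewhat larger differences could be missed too.

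With UV-A, SLC25A1 and SLC25A11, both carboxylate carriers, were called lower in 1-SO cells, the latter at the edge of the threshold. SLC25A1, which exports the citrate used for cytosolic acetyl-CoA, had 53.9, 50.0, 53.8 and 29.6 FPKM in round 1. The library that had received both 1-SO and UV-A was the low one, and the other 3 lay between 50.0 and 53.9 FPKM. Against vehicle UV-A its library ratio was -0.83 and its fitted change -0.87 ± 0.19 (SE; edgeR adjusted p = 0.00268). SLC25A11, which exchanges oxoglutarate for malate in the malate-aspartate shuttle, had 35.7, 32.5, 34.9 and 23.7 FPKM, again lowest with 1-SO and UV-A. Its ratio was -0.53 and its fitted change -0.57 ± 0.19 (edgeR adjusted p = 0.0497). The SLC25A11 call was lost with DESeq2, both limma scales, median-of-ratios factors and a wider gene set. It was also lost without the round term, where the SLC25A1 call was lost too. SLC25A11 overlaps the opposite-strand gene RNF167, at 43.2 to 47.4 FPKM in round 1, and the strand setting of the counting was not given in the sources.

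These were the 2 calls among 37 carriers for 1-SO UV-A against vehicle UV-A, 5.41% of the family beside 11.5% of all genes tested (4.47% higher and 7.05% lower). The difference from that background was not tested. All 3 tested carboxylate carriers had ratios below 0, from -0.98 to -0.53, and in no other substrate class was a tested member called. This depends on the minimum level: the wider gene set also called SLC25A34 and SLC25A45, which have no settled substrate and were higher by FPKM. SLC25A10 had 3.09, 2.21, 3.96 and 1.16 FPKM, the lowest ratio of the tested carriers (-0.98), but its fit of -1.34 ± 0.47 missed the threshold (edgeR adjusted p = 0.0669). The highest ratio of the tested carriers belonged to SLC25A27, with 2.08, 2.9, 2.35 and 4.44 FPKM, a ratio of 0.53 and an adjusted p of 0.136. Of the carriers not tested, SLC25A45 and SLC25A34 had larger authors' log2 fold changes here, 1.21 and 2.27, at up to 1.37 and 0.87 FPKM. Other untested carriers lay on both sides of 0. SLC25A38, which brings glycine in for haem synthesis, had 23.9, 24.7, 23.8 and 35.1 FPKM, and SLC25A36, a pyrimidine nucleotide carrier, had 12.3, 13.4, 13.4 and 18.3. Both had their highest level of round 1 in the 1-SO UV-A library, at adjusted p-values of 0.205 and 0.192. Across the 37 carriers the median ratio was -0.07, beside 0.004 over all genes, with 15 above 0 and 22 below.

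Light within 1-SO cells gave 3 calls, all lower with UV-A, 8.11% of the carriers beside 14.8% of all genes tested (5.57% higher and 9.21% lower). They were the 3 tested members of the carboxylate class. SLC25A10 had a library ratio of -1.85 and a fit of -1.90 ± 0.48 (edgeR adjusted p = 0.00756), SLC25A1 a fit of -0.99 ± 0.20 (0.00105), and SLC25A11 a fit of -0.68 ± 0.20 (0.0205). SLC25A10 was high in the 1-SO dark library, at 3.96 FPKM, and low with UV-A, at 1.16. A second SLC25A10 entry on the same strand was listed at 0, and MRPL12, also on that strand, overlaps it in the round 1 table. By DESeq2 only the SLC25A1 call remained. SLC25A5 was at 275 FPKM in the dark and 197 with UV-A (ratio -0.60, adjusted p = 0.07), which the test did not call.

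Whether light acted differently with 1-SO than with vehicle was tested as an interaction. SLC25A1 was the 1 carrier of 37 called, beside 4.37% of all genes tested (1.47% higher and 2.90% lower), with -0.89 ± 0.24 (edgeR adjusted p = 0.0309; -0.81 by the libraries of round 1). Neither DESeq2 nor limma on either scale called it. SLC25A10 had the lowest value of the libraries, -1.31, and an adjusted p of 0.0556, and SLC25A38 the highest, 0.45 (adjusted p = 0.496).

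**Figure D2:**
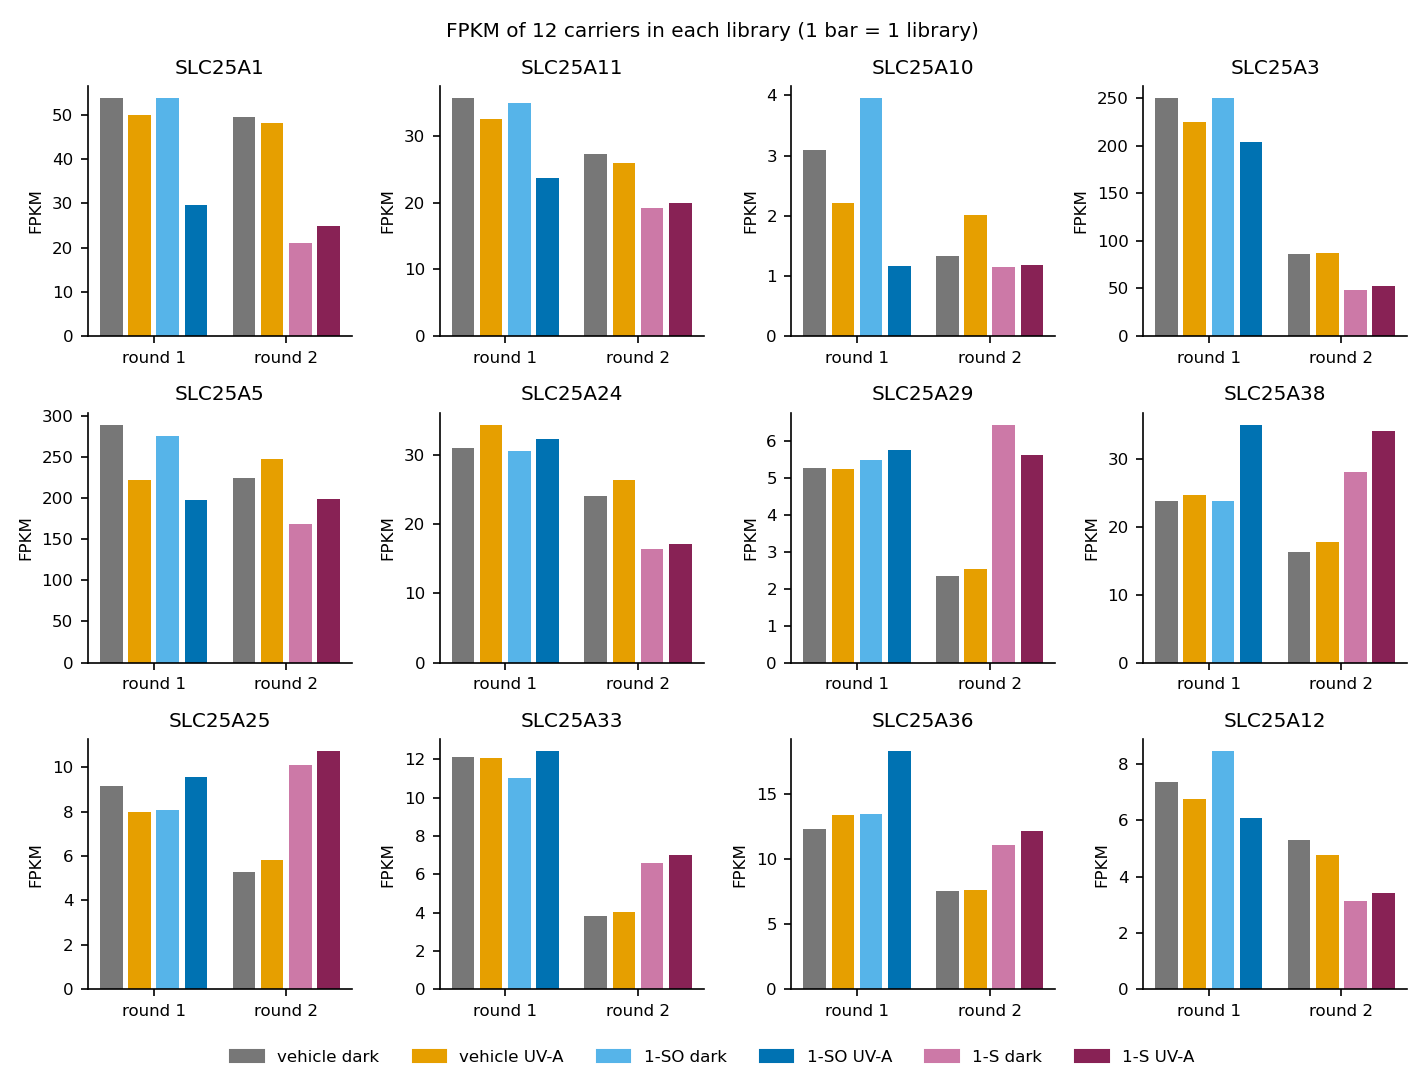
FPKM of 12 carriers, 1 bar per library, with round 1 to the left and round 2 to the right in each panel and axes from 0. SLC25A1 is lower with 1-SO and UV-A (29.6 FPKM) than in the other libraries of round 1, and lower in both 1-S libraries (20.9 and 24.9 FPKM) than with vehicle (49.6 and 48.2 FPKM), while SLC25A29 and SLC25A38 are higher in both 1-S libraries.

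1-S differed from vehicle in the dark as well as with UV-A. In the dark 13 of 37 carriers were called, 35.1% beside 30.9% of all genes tested. Of these 5 were higher (15.9% of all genes were) and 8 were lower (15.0% of all genes), so the family's share was near the background. With UV-A 9 of 37 were called, 24.3% beside 27.5%, with 5 higher (13.8% of all genes) and 4 lower (13.7%). The lists shared 8 carriers, which is 61.5% of the dark list and 88.9% of the UV-A list, and the comparisons use different libraries but a common fitted light term. By DESeq2 the counts were 3 and 5.

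The citrate and phosphate carriers had the lowest ratios of the tested carriers in the dark and were called lower with UV-A as well. SLC25A1 had 49.6 and 48.2 FPKM with vehicle and 20.9 and 24.9 with 1-S. Its fitted change was -1.32 ± 0.19 in the dark (edgeR adjusted p = 8.24e-06) and -0.98 ± 0.19 with UV-A (0.000287). SLC25A3, the phosphate carrier, had 85.9 and 87.3 FPKM with vehicle and 48.2 and 52.9 with 1-S. It fell by 0.94 ± 0.23 on the log2 scale in the dark (edgeR adjusted p = 0.0027) and by 0.72 ± 0.23 with UV-A (0.0169). Both carriers were lower in each 1-S library than in either vehicle library. The share of all genes that separate in this way was not counted. SLC25A11 had 27.2 and 25.9 FPKM with vehicle and 19.2 and 20 with 1-S, and was called in the dark (-0.58 ± 0.19, edgeR adjusted p = 0.0213) but not with UV-A (-0.40 ± 0.19, 0.111).

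The calcium-regulated ATP-Mg/phosphate carriers, which adjust the adenine nucleotide content of the matrix, moved in opposite directions. SLC25A24 had 24 and 26.3 FPKM with vehicle and 16.4 and 17.1 with 1-S, and fell by 0.61 ± 0.18 in the dark and by 0.67 ± 0.18 with UV-A (edgeR adjusted p = 0.0116 and 0.0063). SLC25A25 had 5.26 and 5.8 FPKM with vehicle and 10.1 and 10.7 with 1-S. It rose by 0.79 ± 0.22 and 0.92 ± 0.21 (edgeR adjusted p = 0.00657 and 0.00177). The third such carrier expressed, SLC25A23, was between 23.1 and 25.6 FPKM in round 2 and was not called. On the opposite strand of SLC25A25 lie SLC25A25-AS1, at 0.712 to 0.895 FPKM in round 2, and NAIF1, at 2.44 to 6.56 FPKM. Of the ADP/ATP carriers, SLC25A5 was called in the dark only (168 against 224 FPKM; -0.61 ± 0.22, edgeR adjusted p = 0.0314). Its ratio to the vehicle library of its own round was -0.45.

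Among amino acid carriers the largest rise of the family was that of SLC25A29, which carries lysine, arginine and ornithine. It had 2.34 and 2.54 FPKM with vehicle and 6.43 and 5.62 with 1-S. Its fitted change was 1.36 ± 0.22 in the dark (edgeR adjusted p = 3.99e-05) and 1.13 ± 0.22 with UV-A (0.00034). Below the level for testing, SLC25A45 and SLC25A34 had larger authors' log2 fold changes with UV-A, 1.66 and 2.41 beside 1.02 for SLC25A29. They had at most 0.59 and 0.43 FPKM in round 2, and other untested carriers went either way. SLC25A38 had 16.3 and 17.8 FPKM with vehicle and 28.1 and 34.1 with 1-S, a rise of 0.70 ± 0.19 and 0.91 ± 0.19 (edgeR adjusted p = 0.00619 and 0.000608). The aspartate/glutamate carrier SLC25A12 had 5.3 and 4.78 FPKM with vehicle and 3.12 and 3.43 with 1-S. It was called in the dark (-0.82 ± 0.25, edgeR adjusted p = 0.0136) and had -0.53 ± 0.25 with UV-A (0.111). Its paralog SLC25A13 was called in the dark too (-0.57 ± 0.22, edgeR adjusted p = 0.0492). SLC25A40, related to the glutathione carrier SLC25A39, had 3.99 and 4.45 FPKM with vehicle and 2.84 and 2.6 with 1-S, and was called with UV-A only (-0.81 ± 0.27, edgeR adjusted p = 0.0254). SLC25A39 itself was at 41.5 to 45.5 FPKM in all 4 libraries. On the opposite strand, HAT1 (9.83 to 12.1 FPKM in round 2) overlaps SLC25A12, and DBF4 (7.87 to 10.3 FPKM) overlaps SLC25A40. The strand setting of the counting was not given in the sources.

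The pyrimidine nucleotide carriers, which supply mitochondrial DNA and RNA synthesis, were both higher. SLC25A33 had 3.81 and 4.03 FPKM with vehicle and 6.6 and 6.99 with 1-S (0.71 ± 0.25 and 0.77 ± 0.25, edgeR adjusted p = 0.032 and 0.0215). SLC25A36 had 7.55 and 7.63 FPKM with vehicle and 11.1 and 12.2 with 1-S, and its UV-A change was 0.60 ± 0.18 (0.0138). In each of these genes the 1-S libraries lay above both vehicle libraries, a separation that was not counted over all genes. Beside these and the adenine nucleotide carriers above, no carrier of nucleotides or cofactors was called with 1-S.

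The iron carriers did not go together. SLC25A37 had 27.8 and 23.3 FPKM with vehicle and 19.7 and 20.3 with 1-S, with -0.54 ± 0.18 in the dark (edgeR adjusted p = 0.0226). SLC25A28, the other mitoferrin, had 16.6, 15.7, 19.6 and 18.1 FPKM in round 2 and a fitted change of 0.18 that was not called. In all, 22 of the 37 carriers were called in no comparison. The matching share of all genes tested was not counted, so this number has no background. Among these 22 carriers SLC25A44, the carrier of branched-chain amino acids, had 8.32, 8.71, 11.4 and 10.6 FPKM in round 2 and an adjusted p of 0.0711 in the dark. SLC25A6 came closest with UV-A, at 0.47 ± 0.18 (edgeR adjusted p = 0.0566). SLC25A46, which acts in mitochondrial fission and lipid exchange, had 14.4 and 13.4 FPKM with vehicle and 10.2 and 11.4 with 1-S, and missed the threshold in the dark (adjusted p = 0.0655). The glutamate carrier SLC25A22 ranged from 34.5 to 35.8 FPKM in round 1 and from 17.3 to 19.1 in round 2.

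**Figure D3:**
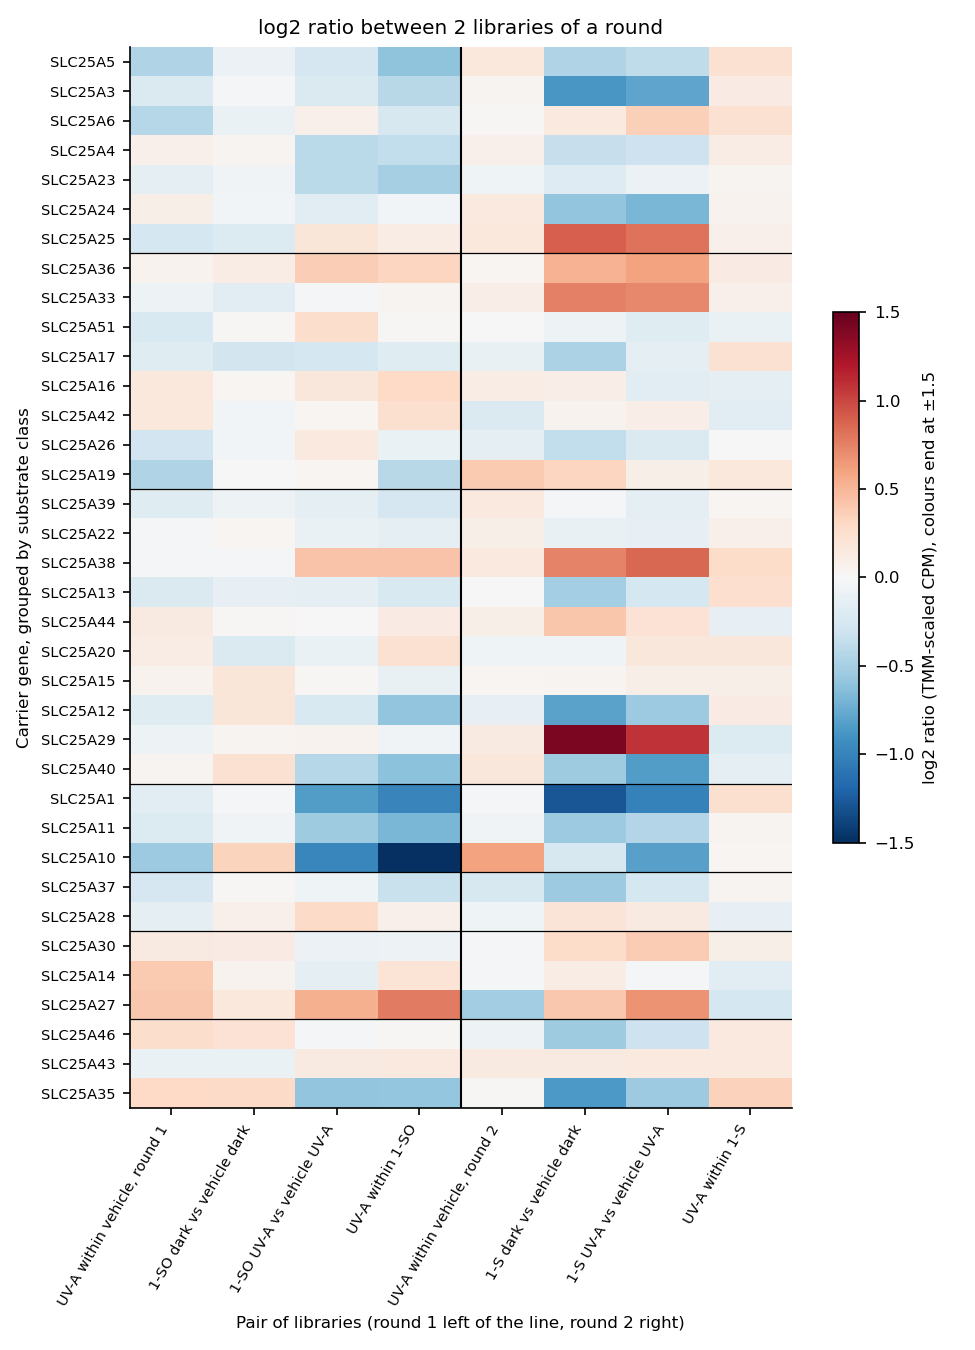
Library log2 ratio (TMM-scaled CPM) of 36 carriers, without SLC25A32, in 8 pairs of libraries, with rows grouped by substrate class and round 1 to the left of the line. The columns of 1-S against vehicle repeat the same blue (SLC25A1, SLC25A3) and red (SLC25A29, SLC25A25, SLC25A38) cells, with ratios from -1.28 to 1.41 in the dark, and the column of 1-SO in the dark runs only from -0.27 to 0.33.

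**Figure D4:**
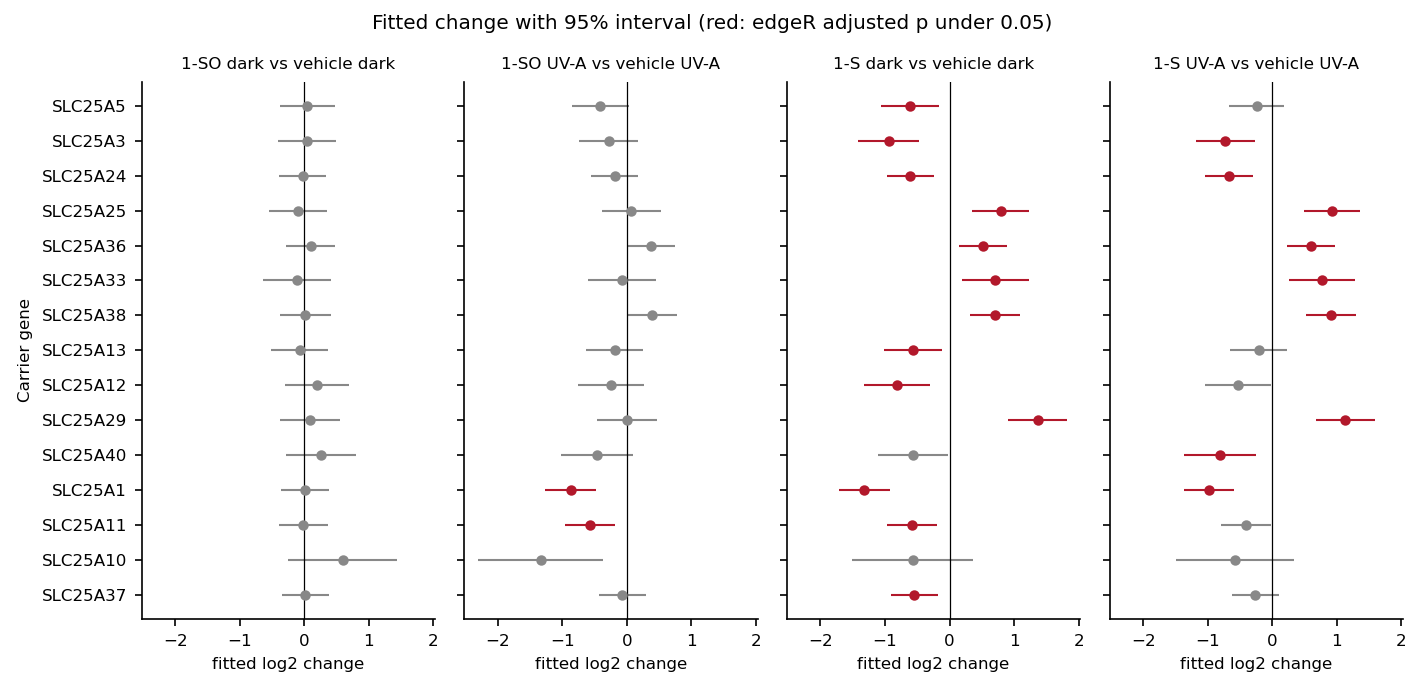
Fitted log2 change (points) with its 95% interval (lines) for the 15 carriers called in any comparison, in 4 comparisons of compound with vehicle under the same light. Red marks an edgeR adjusted p under 0.05, which holds for 0, 2, 13 and 9 carriers from left to right.

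UV-A gave no call in cells holding 1-S. By edgeR 0 of 37 carriers, beside 0% of all genes tested, were called for UV-A within 1-S or for the interaction of UV-A with 1-S. Unadjusted p-values under 0.05 numbered 308 and 285 over all genes, and the 1 carrier among them each time was SLC25A32, with 9 reads in the dark and 1 with UV-A. Of the other 36 carriers 27 were above 0 for UV-A within 1-S, with a median ratio of 0.08 beside 0.003 over all genes. The extremes were SLC25A27 (-0.26) and SLC25A35 (0.34), both at under 5 FPKM. SLC25A1 had 20.9 FPKM in the dark and 24.9 with UV-A, a fitted change of 0.24 with a 95% interval of -0.17 to 0.65. For the interaction the extremes were SLC25A10 (-0.57) and SLC25A17 (0.34), and neither passed.

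The compounds, which differ by the oxo group, were compared as the difference of their changes from vehicle at 1 dose and time, separately in the dark and under UV-A, with p-values adjusted over all genes tested. In the dark 5 of 37 carriers differed, 13.5% beside 17.2% of all genes (8.40% higher and 8.77% lower with 1-SO). SLC25A1 was higher with 1-SO than with 1-S by 1.34 ± 0.24 (95% interval 0.84 to 1.84, edgeR adjusted p = 0.000326). SLC25A12 was higher by 1.02 ± 0.32 (0.36 to 1.67, 0.0293), and SLC25A3 by 0.98 ± 0.29 (0.38 to 1.58, 0.0203). SLC25A29 was lower with 1-SO by a log2 difference of -1.27 ± 0.30 (-1.88 to -0.67, 0.00362), and SLC25A25 by -0.89 ± 0.29 (-1.48 to -0.30, 0.0317). All 5 were among the carriers called with 1-S in the dark. By DESeq2 2 of the 5 calls remained, and since compound, round and passage changed together the difference cannot be assigned to the structure.

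Under UV-A the compounds differed for 1 of 37 carriers, beside 3.55% of all genes tested (1.28% higher and 2.27% lower with 1-SO). SLC25A29 was at 5.22 FPKM with vehicle and 5.74 with 1-SO in round 1, and at 2.54 and 5.62 with 1-S in round 2. The log2 difference of the changes was -1.13 ± 0.29 (95% interval -1.74 to -0.52, edgeR adjusted p = 0.0289), and neither DESeq2 nor limma on either scale called it. For SLC25A1, called with both compounds under UV-A, the difference was 0.11 with an interval of -0.39 to 0.61. For SLC25A11 it was -0.17 (-0.67 to 0.34). A typical interval reached 0.59 to either side, so differences of that size between the compounds were not detectable for most carriers. The largest differences of the libraries, beside SLC25A29 (-1.02) and leaving out SLC25A32, were those of SLC25A33 (-0.76), SLC25A25 (-0.64) and SLC25A3 (0.57), at adjusted p-values of 0.19, 0.104 and 0.53.

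Set side by side, the library ratios of the compounds under UV-A ran together across carriers. They had the same sign for 29 of 36 carriers without SLC25A32 (80.6%), 18 below and 11 above 0, beside 72.8% of all genes tested. Pearson's r across these carriers was 0.73 and Spearman's rho 0.73, beside 0.58 and 0.60 across all genes. The points share the libraries of their round and genes are not independent replicates, so these values only describe. In the dark the same sign was seen for 20 of 36 (55.6%, beside 53.7% of all genes), with r = -0.16.

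**Figure D5:**
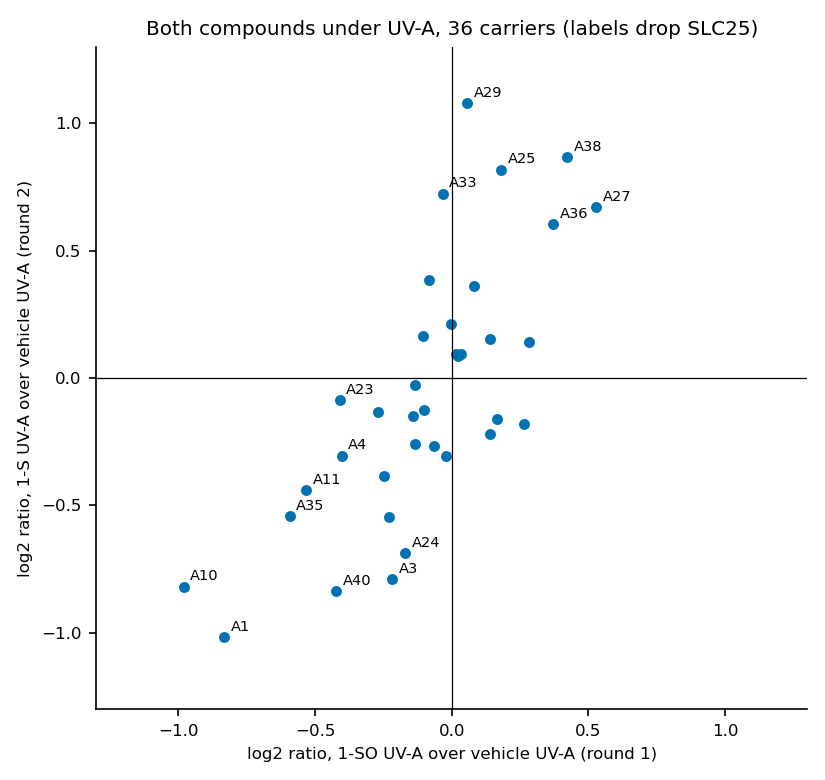
Library log2 ratio of each of 36 carriers with 1-SO and UV-A over vehicle UV-A (horizontal, round 1) against 1-S and UV-A over vehicle UV-A (vertical, round 2), 1 point per carrier. SLC25A1 (-0.83 and -1.02) lies at the lower left, SLC25A38 (0.42 and 0.87) at the upper right, and SLC25A29 (0.06 and 1.08) on the vertical axis only.

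Family members with other symbols and other mitochondrial transport proteins were counted for comparison. UCP2, an uncoupling protein of the same family, had 13, 11.6, 11.2 and 5.62 FPKM in round 1 and was called for 1-SO UV-A against vehicle UV-A (-1.19 ± 0.25, edgeR adjusted p = 0.00167). MTCH2, an outer-membrane member, was called with 1-S in the dark (-0.50 ± 0.18, 0.0369), and MTCH1 in no comparison with vehicle. Of 20 tested genes for channels, sideroflexins, calcium uptake and ABC transporters, 0 were higher and 3 lower for 1-SO UV-A, 0 and 8 for 1-S dark, and 0 and 4 for 1-S UV-A, each against vehicle under the same light. Of all genes tested, 7.05%, 15.0% and 13.7% were lower in these comparisons. ABCB10, an inner-membrane transporter linked to haem synthesis, and MICU2, a regulator of the calcium uniporter, were lower in each of these comparisons. Some carriers were called higher with 1-S, and the difference from these lists was not tested.

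In the authors' deposited tables, which compare single libraries, no carrier was called in 8 of 9 comparisons. Few genes of any kind were called there, from 0 to 886 in a comparison, with 23188 to 58676 genes listed. The 1 carrier called was SLC25A34, a member without a settled substrate, with a log2 fold change of 2.43 (adjusted p = 0.0327) for 1-SO UV-A over vehicle dark. That comparison calls 406 of 23871 genes listed. SLC25A34 lay below the minimum level used here, at 0.87 FPKM against 0.14. Within the deposited comparison of 1-S dark with vehicle dark, the lowest adjusted p of a carrier was 0.0691, that of SLC25A1, with a log2 fold change of -1.37. When all genes with at least 10 reads were tested by edgeR, SLC25A34, SLC25A45 and SLC25A10 were called for 1-SO UV-A against vehicle UV-A beside SLC25A1. By FPKM, SLC25A34 (0.87 against 0.17) and SLC25A45 (1.37 against 0.56) were higher with 1-SO. SLC25A10 (1.16 against 2.21) and SLC25A1 (29.6 against 50.0) were lower.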

How the data were processed

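Poly-A RNA of 8 libraries in 6 groups was analysed. The authors' deposited tables give whole-number read counts per gene, not normalized, per the file headers, and FPKM values, which were recomputed from count, gene length and library total as a check. The 9 deposited comparison tables hold the authors' log2 fold changes, p-values and adjusted p-values. Per the submitters' processing notes, the tools included HTSeq 0.6.1, edgeR 3.16.5, DESeq2, TopHat, STAR-Fusion and STAR 2.5, with hg19 and hg38. Which tool made which table, and the strand setting, were not given in the sources. Counts of round 1 were read from the deposited comparison tables, where genes not listed had an FPKM of 0.

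Tested genes were those shared by both tables that reached an FPKM of 1 in 2 or more libraries. edgeR 4.0.16 (R 4.3.3, quasi-likelihood test, two-sided) fitted 1 model with a term for each round, 1 for light without compound and 1 for each compound library, with TMM factors within each round. It left 1 residual degree of freedom, 26 prior degrees of freedom were added by moderation, and the biological coefficient of variation was 12%. P-values were adjusted by Benjamini and Hochberg. Library ratios used log2 CPM with a prior count of 2. The round is a block because the titles give it and it marks the passage: vehicle libraries correlated at r = 0.988 and 0.993 within rounds and at 0.926 to 0.931 between them. Intervals and floors cover counting error only where they rest on reads.

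Alternatives were DESeq2 1.42.0, limma-trend 3.58.1 on log2(FPKM + 1) and log2(FPKM + 0.1), median-of-ratios factors, all genes with at least 10 reads, no round term, and each library left out. The scripts were tested on simulated counts.

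The carriers, lists and tests were chosen with earlier results of these data known. Named genes were the called carriers (the 8 largest where a comparison called more), the highest and lowest ratio of each comparison, the 6 highest mean levels and the highest of each substrate class. SLC25A22, SLC25A23, SLC25A28, SLC25A34, SLC25A44, SLC25A45 and a few members of comparison lists were named beside these after their values were seen. Protein sequences were not used here.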

Additional observations from a re-analysis of the deposited data

Results flagged for a closer look

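A difference between the compounds, or between light responses, passed the edgeR test itself for 5 carriers. For SLC25A1 the light response differed between 1-SO and vehicle by -0.89, and the dark change differed between 1-SO and 1-S by 1.34. The dark changes of 1-SO and 1-S also differed for SLC25A3 (0.98), SLC25A12 (1.02), SLC25A25 (-0.89) and SLC25A29 (-1.27), and the changes under UV-A differed for SLC25A29 (-1.13). Each value is a log2 difference, 1-SO minus the other group. Compound, round and passage cannot be told apart in the values that set 1-SO against 1-S.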

How the results depend on the processing

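Counts of called carriers moved with the test. DESeq2 called 1 for 1-SO UV-A against vehicle UV-A (2 by edgeR), 1 for UV-A within 1-SO (3), 3 for 1-S dark (13), 5 for 1-S UV-A (9), 0 for the interaction with 1-SO (1), 2 for the compounds compared in the dark (5) and 0 for the same under UV-A (1). For 1-SO UV-A, limma on either scale and median-of-ratios factors called 1 and the wider gene set 4. For UV-A within 1-SO the wider set called 5, and for the interaction 2. limma on either scale called 0 for the interaction and 0 for the compounds under UV-A, and with the pseudocount of 0.1 it called 3 for the compounds in the dark. Without the replicate block, that is without the round term, each of these counts was 0. Without any 1 compound library the counts that could be made stayed at 2, 3, 13, 9, 1, 5 and 1. Each compound library has a term of its own, so leaving it out hardly touches the comparisons that remain. That outcome was thus largely fixed by the design. Without a vehicle library no residual degree of freedom is left, so only values were compared: none of the 34 called values changed sign, and those that moved most were, without vehicle dark of round 2, SLC25A5 (-1.06) and SLC25A25 (0.48) for 1-S dark and, without vehicle UV-A of round 2, SLC25A25 (1.24) for 1-S UV-A. Over the 34 calls, 350 of 432 alternative values were the same, 79 kept direction and lost the call, 3 moved and 0 turned. The cause of these losses was not tested. Where a test was run, the same means that direction and call were kept. Without a vehicle library there is no call to keep, and the same means a move of less than 1 SE. The 350 also hold the values without a compound library, where the design largely fixed the outcome. Depth limits SLC25A32 in round 2 (1 to 9 reads).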
